A study of Mus musculus with 16 samples.

Results

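Mice that had received no secretory IgA (SIgA) from either source were compared after colitis and without it. These were Pigr-/- offspring of Pigr-/- dams, on the C57BL/6 background. They got no SIgA with the milk (no passive SIgA) and could not move their own IgA across the gut epithelium (no active SIgA). They were taken by the sample titles that name them negative for both sources, which gave 4 of the 16 arrays of the study: 2 arrays of untreated mice and 2 arrays of mice that drank 2% dextran sulfate sodium (DSS) for 8 days. All mice were 70 days old and gender-matched, and the label for the sampled material was colonic epithelial cells.

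The other 12 arrays held 3 groups, each with the same pair of treatments. Pigr+/- offspring of Pigr+/- dams had both sources of SIgA. Pigr-/- offspring of Pigr+/- dams had passive SIgA only, and Pigr+/- offspring of Pigr-/- dams had active SIgA only. The study asked how early exposure to milk SIgA and endogenous SIgA transport shape the response of the colon to injury. Each array carried the pooled RNA of 3 of the 6 mice of a group, so that the spread of single mice was not measured. Every animal of the group lacking both sources also lacked Pigr in all tissues from birth and was raised by a Pigr-deficient dam. Genotype, milk and litter can therefore not be told apart within this group, and its control is the untreated group of the same genotype and dam.

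The polymeric immunoglobulin receptor, the product of Pigr, binds dimeric IgA at the base of epithelial cells, carries it to the lumen and is cleaved there to release SIgA. SIgA coats luminal bacteria and keeps them away from the epithelium. DSS is a sulfated polysaccharide that damages the colonic epithelium, so that luminal microbes meet the mucosa and acute colitis follows.

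Levels are log2 RMA intensities, and a change is the mean of the DSS pools minus the mean of the untreated pools, with its standard error. A gene was called at a Benjamini-Hochberg adjusted p under 0.05 over 19938 genes in a limma fit of all 16 arrays. With neither source of SIgA, 223 genes were called (1.12% of those tested). Of these, 98 rose (0.492%) and 125 fell (0.627%). The DSS pools lay above the untreated pools without overlap for 19.3% of all genes and below them for 21.5%.

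The 14 measured markers of colonic epithelium had mean levels of 12.402 to 12.432 in the untreated pools and 12.293 to 12.296 after DSS, and none was called. The keratin gene Krt8 stood at 14.29 and 14.25 in the untreated pools and at 14.11 and 14.16 after DSS. The Pigr probe set read 11.68 and 11.70 untreated and 11.48 and 11.58 after DSS, against 12.18 to 12.46 on the arrays of Pigr+/- mice. The change with DSS was -0.16 ± 0.10 (adjusted p = 0.80). The labels used here do not say which part of Pigr was deleted, so that these readings cannot check the genotype. Some markers of neutrophils and macrophages were higher after DSS, as given beside the genes they move with. In a bulk isolate, more cells of a type and more RNA per cell cannot be told apart.

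The largest rises were in genes of innate defence, cytokines and myeloid cells. Serglycin (Srgn), the core protein of secretory granules in blood cells, read 7.15 in both untreated pools and 10.68 and 10.18 after DSS, a change of 3.28 ± 0.24 or 9.72-fold (adjusted p = 4.12e-05). Clca4b, 1 of 7 measured Clca genes, whose products regulate chloride channels, read 7.85 and 8.53 untreated and 11.73 and 11.07 after DSS (3.22 ± 0.29). The DSS pools lay far above the untreated pools in both genes. The monocyte-attracting chemokine gene Ccl3 went from 5.90 and 6.16 to 9.26 and 9.01 (3.11 ± 0.28). Acod1, whose enzyme makes itaconate in activated macrophages, went from 6.16 and 6.04 to 9.05 and 9.31 (3.08 ± 0.36).

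**Figure D1:**
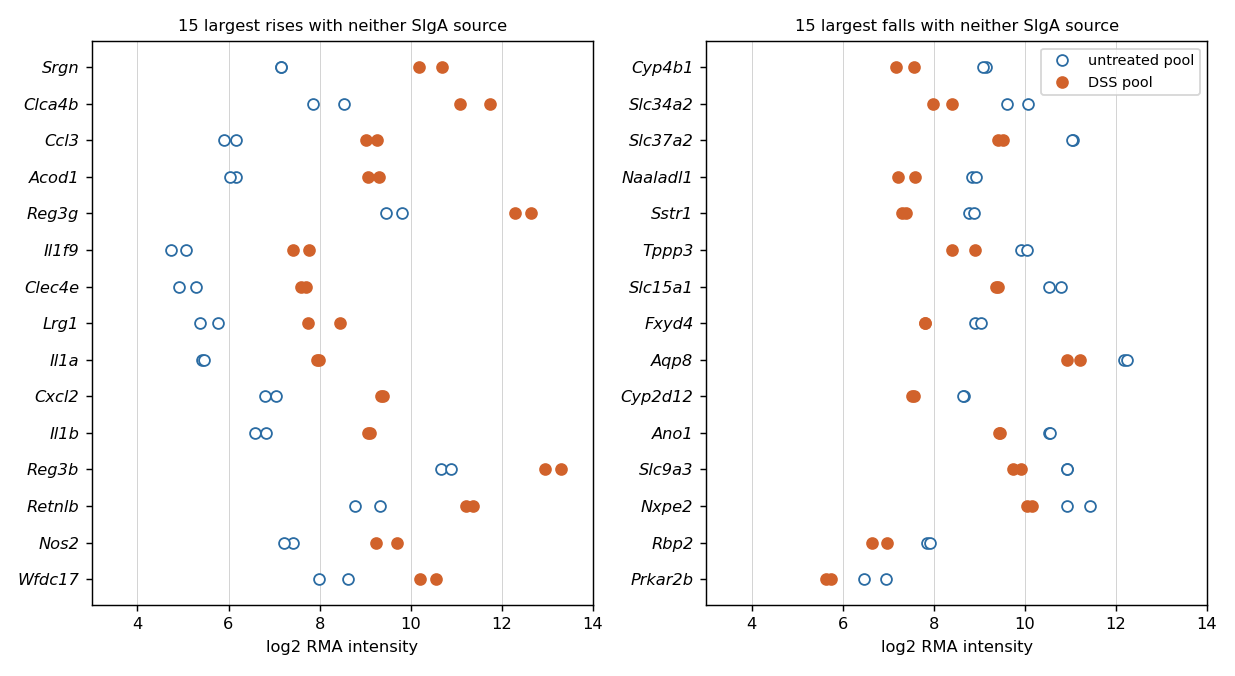
Log2 RMA intensity (horizontal axis) of the 15 largest rises and the 15 largest falls among named genes called in mice with neither SIgA source. Each open circle is an untreated pool of 3 mice and each filled circle a DSS pool. In all 30 genes the 2 DSS pools lie on one side of the 2 untreated pools, as the rule for naming these genes required.

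Promoters of 4 genes with large rises are shown next, with 1 of a gene that fell, because these genes are among those with the largest changes in this group. Each is the 150 bases before the RefSeq transcription start in GRCm38.p6. Capitals mark matches, on either strand, to the NF-kB consensus, to TTCNNNGAA (a STAT-type motif) or to TATAAA. The stretches are Cxcl2, chr5:90903749-90903898, plus strand; Reg3g, chr6:78468875-78469024, minus strand; Reg3b, chr6:78370735-78370884, plus strand; Acod1, chr14:103046862-103047011, plus strand; and Slc37a2, chr9:37255739-37255888, minus strand.
Cxcl2: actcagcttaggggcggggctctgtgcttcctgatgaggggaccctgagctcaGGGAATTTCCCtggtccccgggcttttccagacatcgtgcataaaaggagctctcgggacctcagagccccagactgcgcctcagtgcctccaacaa
Reg3g: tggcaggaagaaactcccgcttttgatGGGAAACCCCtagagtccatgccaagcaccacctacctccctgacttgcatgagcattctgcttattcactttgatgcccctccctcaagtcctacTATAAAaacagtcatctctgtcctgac
Reg3b: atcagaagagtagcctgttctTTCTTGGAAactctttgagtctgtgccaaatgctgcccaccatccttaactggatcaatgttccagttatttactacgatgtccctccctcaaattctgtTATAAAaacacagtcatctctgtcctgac
Acod1: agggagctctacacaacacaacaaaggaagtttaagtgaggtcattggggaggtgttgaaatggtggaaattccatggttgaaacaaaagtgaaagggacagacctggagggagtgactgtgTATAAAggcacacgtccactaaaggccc
Slc37a2: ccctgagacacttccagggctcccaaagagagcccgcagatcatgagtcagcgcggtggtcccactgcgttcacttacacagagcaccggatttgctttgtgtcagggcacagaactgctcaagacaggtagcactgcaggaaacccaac

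In Cxcl2, overlapping matches to the NF-kB consensus on the 2 strands end 87 bases before the start. Reg3g has such a match from 123 to 114 bases before the start, and its neighbour Reg3b has TTCNNNGAA from 129 to 121. TATAAA begins 27 bases before the start in Reg3g, 29 in Reg3b and 28 in Acod1. None of these letters was found in the shown stretch of Slc37a2. Promoters were found in RefSeq for 77 of the 98 genes that rose (89 promoters) and 104 of the 125 that fell (129 promoters). In the 250 bases before the start, TATAAA was in 24.7% of the promoters of rising genes, 10.1% of those of falling genes and 12.4% of all 32841. TTCNNNGAA was in 12.4%, 3.88% and 7.02%, and the NF-kB consensus in 11.2%, 7.75% and 7.25%, in the same order. These are matches of letters and say nothing of binding.

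Of 27 measured genes of antimicrobial proteins 8 were called higher and none lower, with a median change of 0.223 against 0.011 over all genes. The lectin gene Reg3g, whose product kills Gram-positive bacteria, read 9.47 and 9.80 untreated and 12.64 and 12.29 after DSS, a change of 2.83 ± 0.36 or 7.11-fold (adjusted p = 0.00191). Its relative Reg3b read 10.67 and 10.88 untreated and 13.30 and 12.94 after DSS (2.35 ± 0.23). Retnlb, a resistin-like product of goblet cells, read 8.78 and 9.33 untreated and 11.37 and 11.22 after DSS (2.24 ± 0.24). For all 3 the pools of the groups were far apart. Wfdc18, with a whey acidic protein domain, rose by 2.06 ± 0.21, the phospholipase gene Pla2g2a by 1.51 ± 0.16 and the calprotectin subunit gene S100a8 by 1.17 ± 0.18. The antiprotease gene Slpi rose by 1.11 ± 0.18 and the peptidoglycan-binding gene Pglyrp1 by 0.61 ± 0.13. Lcn2, a siderophore-binding protein much used as a marker of colitis, read 5.70 and 5.61 untreated and 7.13 and 6.48 after DSS and was not called (1.15 ± 0.29, adjusted p = 0.0847). With 1 of the 4 pools left out, 5 or 6 members were called, 5 of them without the first DSS pool.

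Of 12 genes of oxidant enzymes, 4 rose. Nos2, the inducible nitric oxide synthase, read 7.41 and 7.21 untreated and 9.70 and 9.24 after DSS, a change of 2.16 ± 0.15 or 4.47-fold (adjusted p = 4.12e-05). The hydrogen peroxide-forming oxidase gene Duox2 rose by 1.11 ± 0.24 and Duoxa2, its maturation factor, by 1.54 ± 0.24. Cybb, the oxidase subunit of phagocytes, rose by 1.14 ± 0.22. Of these only Nos2 kept its call with each of the 4 pools left out in turn. Without the first DSS pool or the second untreated pool it was the sole member called, and without the second DSS pool or the first untreated pool 2 members were.

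Among 14 acute phase genes 4 rose: Lrg1 (2.53 ± 0.34), the lipopolysaccharide-binding protein gene Lbp (1.84 ± 0.24), the metalloreductase gene Steap4 (1.29 ± 0.21) and the antiprotease gene Serpina3n (1.18 ± 0.14). Lrg1 read 5.78 and 5.38 untreated and 8.45 and 7.75 after DSS. The untreated pools and the DSS pools of Lrg1 did not overlap, as the rule for naming the largest rises required.

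Cytokine genes that rose were mainly of the interleukin 1 family. Of 30 cytokines and receptors 6 were called higher, and none lower. Il1f9, which encodes interleukin 36 gamma, read 5.06 and 4.73 untreated and 7.42 and 7.77 after DSS (2.70 ± 0.35). Il1a read 5.42 and 5.46 untreated and 7.98 and 7.95 after DSS (2.52 ± 0.28). Il1b read 6.83 and 6.59 untreated and 9.06 and 9.10 after DSS (2.37 ± 0.32, adjusted p = 0.00262). In these 3 genes the DSS pools lay more than 2 log2 units above the untreated pools. Il1r2, the decoy receptor, rose by 1.01 ± 0.18, Tnf by 1.05 ± 0.22 and the tumour necrosis factor receptor gene Tnfrsf1b by 0.87 ± 0.13. With 1 of the 4 pools left out, 3 to 6 members were called, 3 without the first DSS pool or the second untreated pool and 4 without the second DSS pool.

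Of 23 chemokines 3 rose. Besides Ccl3 these were Cxcl2, which draws neutrophils (6.81 and 7.04 untreated, 9.36 and 9.38 after DSS, a change of 2.45 ± 0.20), and Ccl20, which draws cells that carry the receptor CCR6 (1.29 ± 0.24). Among 28 genes of pattern recognition and NF-kB feedback 5 rose: the mycobacterial glycolipid receptor gene Clec4e (2.55 ± 0.32), its neighbour Clec4d (1.12 ± 0.22), Tnfaip2 (1.26 ± 0.25), the cytokine signalling inhibitor gene Socs3 (1.03 ± 0.14) and the lipopolysaccharide co-receptor gene Cd14 (0.95 ± 0.16). Clec4e read 5.28 and 4.92 untreated and 7.70 and 7.59 after DSS, and it alone of the 5 kept its call with each of the 4 pools left out in turn. Members called numbered 1 without the second DSS pool or the second untreated pool, 2 without the first DSS pool and 3 without the first untreated pool. Of 8 measured MHC class II genes, which present antigen, 4 were called higher: Cd74 (1.76 ± 0.33), H2-Aa (1.44 ± 0.28), H2-Ab1 (1.12 ± 0.22) and H2-Eb1 (0.97 ± 0.13). Without the first DSS pool or the second untreated pool no member was called, and without the second DSS pool or the first untreated pool 1 was. None of 9 MHC class I and immunoproteasome genes and none of 9 genes of IgA transport and class switching was called. Of 9 myeloid metabolic enzymes 2 rose, Acod1 and the histidine decarboxylase gene Hdc.

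Several of these genes belong to myeloid cells. Of 20 neutrophil markers 6 were called higher (Trem1, Retnlg, Cxcr2, S100a8, Hdc and Clec4d), with rises of 1.12 to 1.87. For 11 of the 20 the DSS pools lay above the untreated pools, for 1 below, and for 8 they overlapped. The median change of the 20 was 0.225, and the lowest was -0.289. Of 22 monocyte and macrophage markers 6 were called higher (Lilr4b, Plek, Cybb, Fcer1g, Mpeg1 and Itgam), with rises of 0.58 to 1.78. For 19 of the 22 the DSS pools lay above the untreated pools, against 19.3% of all genes. The mean level of the neutrophil list was 5.748 to 5.881 untreated and 6.369 to 6.406 after DSS. That of the macrophage list was 5.753 to 5.937 untreated and 6.415 to 6.452 after DSS. Defining markers that were not called were Csf3r, the receptor for granulocyte colony-stimulating factor (5.65 and 5.47 untreated, 6.00 and 6.04 after DSS), and Csf1r, that for the macrophage factor (5.54 and 5.41 untreated, 5.99 and 6.08 after DSS). The part of such cells in the rises of Srgn, Ccl3, Il1b and the other cytokine genes was not tested. Neutrophil markers called numbered 4 without the second DSS pool and 3 without any of the other pools. Macrophage markers called numbered 1 without the first DSS pool, 2 without the second DSS or the first untreated pool and 0 without the second untreated pool. No marker was called of 21 for T cells, 17 for B and plasma cells, 12 for smooth muscle, 13 for endothelium, 12 for neurons and glia or of 4 sex-linked genes, and 1 of 21 for fibroblasts was (Fbln1, 0.64 ± 0.13). The call of Fbln1 was lost with any of the 4 pools left out.

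**Figure D2:**
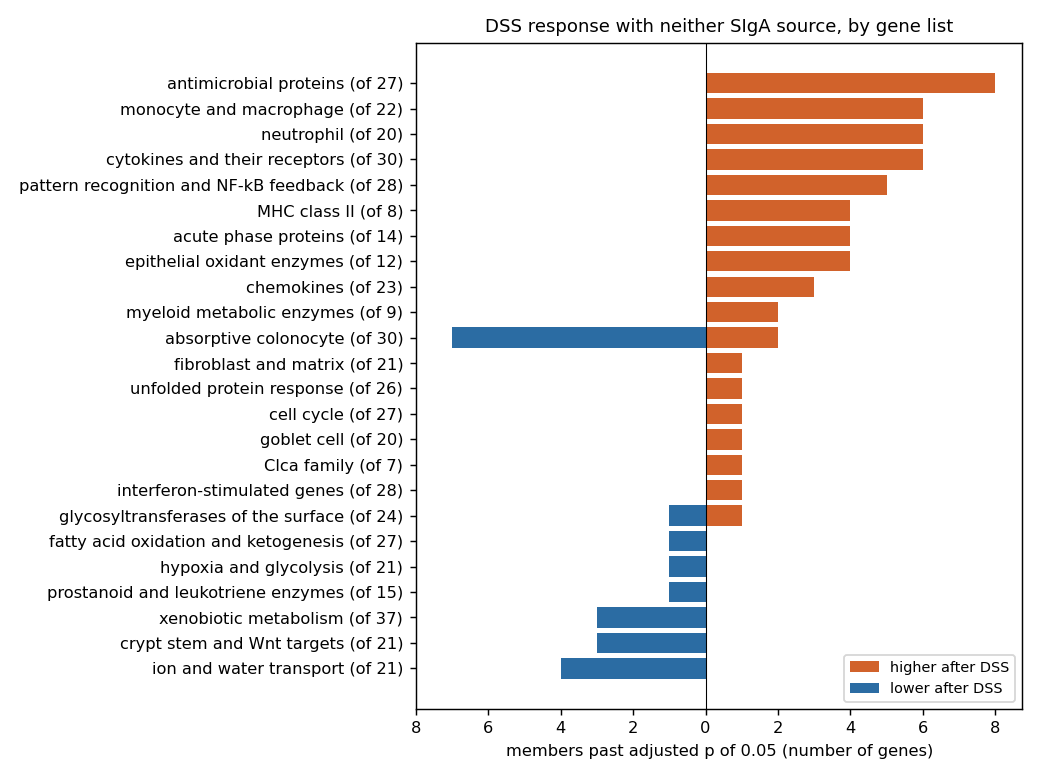
Number of genes called higher (bars to the right) and lower (bars to the left) after DSS in mice with neither SIgA source, for each list with at least 1 call. The number of measured members stands beside each name, and 0.492% of all genes were called higher and 0.627% lower. Defence, cytokine and myeloid lists hold rises, transport and crypt lists hold falls, and the absorptive list holds 7 falls and 2 rises.

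Genes of the absorptive surface were among those that fell. Of 30 genes of absorptive colonocytes 7 fell and 2 rose, and the median change was -0.305. The DSS pools lay below the untreated pools in 21 of the 30, against 21.5% of all genes. Slc34a2, a sodium phosphate cotransporter, read 10.06 and 9.60 untreated and 7.99 and 8.40 after DSS, a change of -1.63 ± 0.27 (adjusted p = 0.00987). Aqp8, the water channel of surface colonocytes, read 12.17 and 12.24 untreated and 11.22 and 10.92 after DSS (-1.14 ± 0.20). Slc9a3, the sodium-hydrogen exchanger NHE3, read 10.92 and 10.93 untreated and 9.92 and 9.73 after DSS (-1.10 ± 0.23). In all 3 the DSS pools lay below both untreated pools, as the rule for naming the largest falls required. Its relative Slc9a2 fell by 0.62 on the log2 scale, Tmigd1 by 0.96, the sodium channel subunit gene Scnn1a by 0.76 and the guanylin gene Guca2a by 0.58. The members that rose were Aqp4, another water channel (0.73 ± 0.12), and Ms4a12 (0.80 ± 0.12). The anion exchanger gene Slc26a3 (12.51 and 12.64 untreated, 12.07 and 11.86 after DSS) and the carbonic anhydrase gene Car4 (13.32 and 13.36 untreated, 12.89 and 12.80 after DSS) were not called, with adjusted p-values of 0.10 and 0.0737. Of this list 3, 2 and 1 genes were called without the second DSS, the first untreated and the second untreated pool, and none without the first DSS pool.

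Of 21 genes of ion and water transport, 4 fell and none rose. Slc37a2, a sugar phosphate exchanger, read 11.05 and 11.02 untreated and 9.52 and 9.41 after DSS, a change of -1.57 ± 0.15 or 2.98-fold (adjusted p = 0.000237). Ano1, a calcium-activated chloride channel, read 10.53 and 10.54 untreated and 9.43 and 9.45 after DSS (-1.10 ± 0.13). Fxyd4, a regulator of the sodium pump, fell by 1.15 and the bestrophin channel gene Best2 by 0.96 on the log2 scale. The pools of Ano1 differed by less than 0.05 within each group. Without the second untreated pool 2 members were called.

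The largest fall was in Cyp4b1, a cytochrome P450 that hydroxylates fatty acids and foreign compounds. It read 9.14 and 9.08 untreated and 7.57 and 7.16 after DSS, a change of -1.74 ± 0.19 or 3.34-fold (adjusted p = 0.000831). Of 37 genes of xenobiotic metabolism 3 fell, with Cyp4f14 (-0.77 ± 0.15) and Cyp2s1 (-0.60 ± 0.13) beside it, and 1 member, Cyp4b1, was called with any of the 4 pools left out. Counted by symbol, a grouping chosen after the values were seen, 7 of 86 cytochrome P450 genes fell (8.14%) and none rose. Over all genes 0.627% were called lower and 0.492% higher. With any of the 4 pools left out 1 P450 gene was called. Of 377 solute carriers 9 fell (2.39%) and 3 rose (0.796%), against 0.627% and 0.492% of all genes. Without the first DSS or the first untreated pool 2 were called lower and 1 higher, without the second DSS pool 3 and 1, and without the second untreated pool 3 and 2.

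Other large falls were in Naaladl1, a brush border peptidase (8.85 and 8.92 untreated, 7.60 and 7.21 after DSS, -1.48 ± 0.19), and Sstr1, a somatostatin receptor (8.77 and 8.87 untreated, 7.31 and 7.38 after DSS, -1.48 ± 0.19). The peptide transporter gene Slc15a1 read 10.53 and 10.79 untreated and 9.36 and 9.41 after DSS (-1.27 ± 0.17). The DSS pools of these 3 genes lay at least 1 log2 unit below the untreated pools. The retinol-binding gene Rbp2 fell by 1.07, Tppp3 by 1.33, Nxpe2 by 1.08, Cyp2d12 by 1.11 and the protein kinase A subunit gene Prkar2b by 1.02. Of the 15 largest falls 6 kept their call in all 30 alternatives run (Cyp4b1, Slc37a2, Naaladl1, Sstr1, Slc15a1 and Ano1), and of the 15 largest rises all 15 did. The other 9 falls lost it with at least 1 of the 4 pools left out. Among them, Aqp8, Slc9a3 and Cyp2d12 lost it with any of the 4 left out. Nxpe2 and Tppp3 kept it in only 1 of these 4 fits.

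Among 21 genes of crypt stem cells and Wnt targets 3 fell. The stem cell receptor gene Lgr5 read 8.14 and 8.45 untreated and 7.55 and 7.09 after DSS (-0.98 ± 0.17, adjusted p = 0.0159). Ephb3 fell by 0.81 and Axin2, a feedback inhibitor of the Wnt pathway, by 0.64 on the log2 scale. Of 27 cell cycle genes Ccnd1, which encodes cyclin D1, rose (0.57 ± 0.12). For 17 of the 27 the DSS pools lay above the untreated pools and for none below, against 19.3% and 21.5% of all genes, though Mki67 (9.83 and 10.02 untreated, 10.12 and 10.35 after DSS) and Ccna2 (8.99 and 9.03 untreated, 9.60 and 9.93 after DSS) were not called. The calls of Axin2, Ephb3 and Ccnd1 were lost with any of the 4 pools left out, and that of Lgr5 with 2 of them.

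Of 20 goblet cell genes 1 was called, Retnlb. None was called among 24 tight junction and adhesion genes. The claudin gene Cldn4, for one, read 12.56 and 12.59 untreated and 11.99 and 11.72 after DSS (adjusted p = 0.157). None was called either of 18 enteroendocrine, 14 tuft cell, 25 wound repair, 24 oxidative phosphorylation, 17 sterol synthesis, 16 circadian and 21 immediate early genes. For 17 of the 21 immediate early genes the DSS pools lay below the untreated pools, against 21.5% of all genes. The median change of these 21 was -0.235, and -0.206, -0.228 and -0.168 with both, passive only and active only. Single falls were of Hpgd, which degrades prostaglandins (-0.70 ± 0.13, 1 of 15 prostanoid and leukotriene genes), the angiogenic factor gene Vegfa (-0.61 ± 0.11, 1 of 21 hypoxia and glycolysis genes) and the fatty acid-binding gene Fabp2 (-0.81 ± 0.16, 1 of 27 genes of fatty acid oxidation and ketogenesis). Of 24 glycosyltransferases the fucosyltransferase gene Fut2 rose (0.65 ± 0.13) and the sialyltransferase gene St3gal4 fell (-0.77 ± 0.12). Of 26 genes of the unfolded protein response Sdf2l1 rose (0.60 ± 0.13). The calls of Hpgd, Vegfa, Fabp2, Fut2, St3gal4 and Sdf2l1 were each lost with any of the 4 pools left out.

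Interferon-stimulated genes set the untreated pools apart from each other. Of 28 measured genes 26 were higher in the first untreated pool than in the second, by a median of 0.493, against 11167 of all 19938 genes and a median of 0.031. The antiviral gene Ifit1 read 9.03 in the first and 7.66 in the second, and 8.06 in both DSS pools. Its relative Ifit3 read 7.72 and 6.58 untreated and 6.60 and 6.85 after DSS, and Usp18, which removes the ISG15 modifier, 8.03 and 6.87 untreated and 7.03 and 7.39 after DSS. For these 3 genes the DSS pools lay between the untreated pools. The mean of the list was 7.839 to 8.386 untreated and 8.136 to 8.213 after DSS, with a median change of -0.078. Untreated pools of other groups also differed in this mean, at 7.698 to 8.242 with passive SIgA only and 7.863 to 8.263 with active SIgA only. With both sources they stood at 7.87 to 7.936. The 1 called member of the list with neither source was Ifitm1 (1.04 ± 0.20), whose call was lost with any of the 4 pools left out. The first untreated pool was also higher for 17 of 21 fibroblast markers, by a median of 0.412, and for 21 of 22 macrophage markers, by a median of 0.192. What set that pool apart was not tested.

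**Figure D3:**
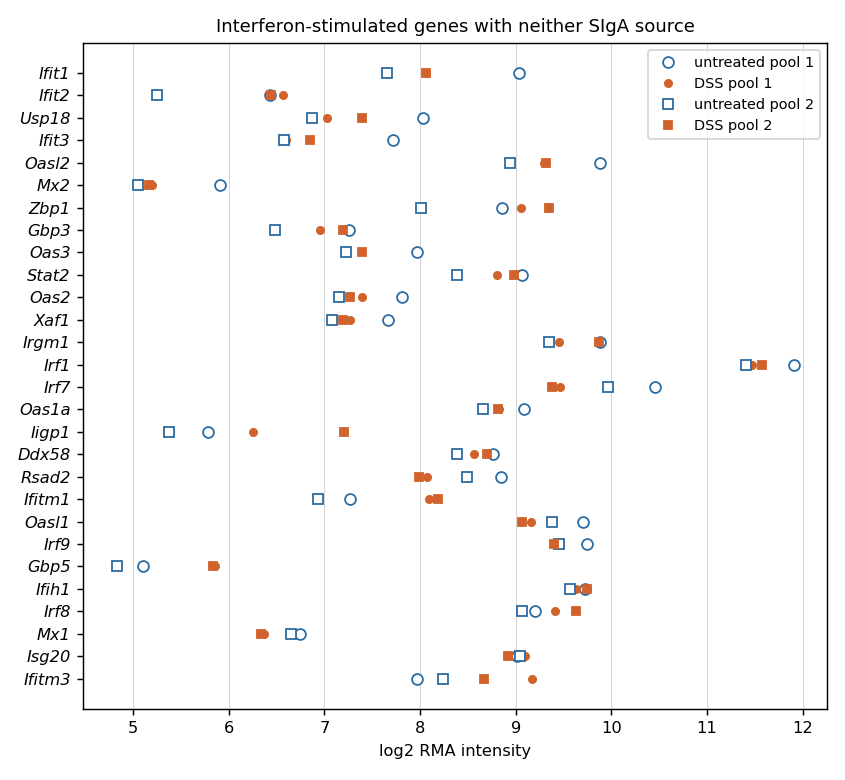
Log2 RMA intensity (horizontal axis) of 28 interferon-stimulated genes in the 4 pools with neither SIgA source, ordered by the gap between the untreated pools. Open circles (first untreated pool) lie to the right of open squares (second untreated pool) for 26 genes, and the filled DSS symbols lie above both for 7 genes and below both for 5.

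The response was then set beside that of the 3 groups with at least 1 source of SIgA. All 98 genes that rose with neither source had a positive change in each of the other groups, and 114 of the 125 that fell (91.2%) had a negative change in all 3. Over all genes, 24.9% had the same sign in all 3. The median change of the 98 was 1.11 with neither source, 1.28 with both, 0.993 with passive SIgA only and 1.06 with active SIgA only. The median of the 125 was -0.746, -0.479, -0.543 and -0.509 in the same order. The genes were chosen by the values of the first group, which alone can make its medians the more extreme, and no test was made of them. Of the 98, 94, 71 and 69 were also called higher in the groups with both, passive only and active only, and of the 125, 68, 61 and 41 were also called lower. In those groups 3.56%, 0.893% and 0.622% of all genes were called higher and 6.53%, 1.08% and 0.376% lower.

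**Figure D4:**
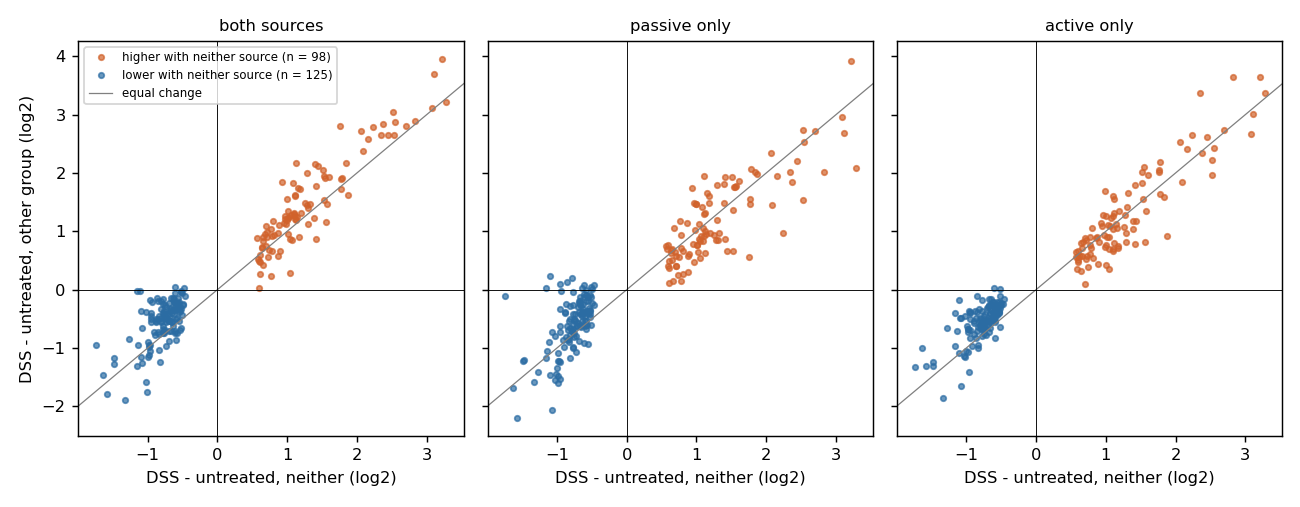
Change with DSS (log2) in mice with neither SIgA source (horizontal axis) against the change in each of the other 3 groups (vertical axis) for the 98 genes called higher and the 125 called lower with neither source. The grey line marks equal change. Rising genes lie near the line, with medians of 1.11 against 0.993 to 1.28, and many falling genes lie above it, with medians of -0.746 against -0.543 to -0.479.

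The difference between the DSS effects was tested directly. All genes were tested, but predicted, small RNA and receptor-family symbols were left out of the naming. Against the mean of the other 3 groups 1 gene was called (0.00502% of those tested) and 1273 had an unadjusted p under 0.05. It was Zfp600, a zinc finger gene, with a difference of 1.44 ± 0.15 (adjusted p = 0.00522). Zfp600 in mice with neither source read 2.59 and 2.56 untreated and 2.97 and 2.92 after DSS. The untreated pools with both sources read 5.65 and 5.57. Without that group the difference was 0.485 and not called (adjusted p = 1.0). Against passive SIgA only no gene was called (0.0%), with 851 at an unadjusted p under 0.05. The smallest p-values among the symbols kept were those of Cyp4b1 (-1.63 ± 0.27), the anticoagulant gene Pros1 (1.15 ± 0.21) and the steroid dehydrogenase gene Hsd11b2 (0.77 ± 0.14). All had an adjusted p of 0.478. Against active SIgA only no gene was called (0.0%), with 740 at an unadjusted p under 0.05. Among the symbols kept, the smallest p-values were those of Adtrp (-0.76 ± 0.19), the respiratory complex I subunit gene Ndufa6 (-0.58 ± 0.145) and the meprin subunit gene Mep1b (-0.68 ± 0.18). All had an adjusted p of 0.924. The median standard error was 0.174 for the difference from the mean of the others and 0.213 for that from 1 group. Small differences were therefore not detectable. After adjustment over all genes, differences as large as -1.63 for Cyp4b1 and 1.15 for Pros1 against passive SIgA only were not called either. Intervals for shared responses were wide: the 95% interval of the difference from the mean of the others was -0.91 to 0.87 for Reg3g, -0.53 to 0.22 for Nos2 and -0.77 to 0.83 for Il1b.

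Against the group with both sources 433 genes were called (2.17%), 409 higher and 24 lower. With predicted, small RNA and receptor-family symbols left out, 5 genes had the smallest p. They were Zfp600 (3.35 ± 0.18), Nyx (1.5 ± 0.17), the defensin gene Defb4 (1.71 ± 0.20), Mup5 (1.84 ± 0.22) and Scgb2b2 (1.55 ± 0.19). None of these 5 was called with neither source. Nyx read 9.51 and 9.43 untreated and 9.49 and 9.57 after DSS, while its mean with both sources was 10.85 untreated and 9.41 after DSS. The 1275 chemosensory receptor and keratin-associated genes had mean levels of 5.258 to 5.413 in the untreated pools with both sources and 4.461 to 4.594 in those with neither. After DSS these levels were 4.451 to 4.71 with both sources and 4.536 to 4.619 with neither. With passive SIgA only or active SIgA only, untreated or after DSS, they were 4.49 to 4.871. The untreated pools with both sources thus stood above those of every other group. With the dimmest 30% of genes left out, 7 genes were called. The part of the untreated arrays with both sources in the difference was not tested.

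Several genes fell further with neither source than on average elsewhere, though the difference from that average did not pass the threshold. The 4 given here were chosen after their values were seen. Such a choice favours genes with high untreated pools in this group, because the untreated mean enters the difference. Tmigd1, a cell adhesion gene of the brush border, read 9.55 and 9.59 untreated and 8.53 and 8.68 after DSS (-0.96 ± 0.14), against changes of -0.17, 0.10 and -0.36 with both, passive only and active only. Its difference from the mean of the others was -0.82 ± 0.17, with a 95% interval from -1.18 to -0.46 (adjusted p = 0.317). The hexokinase-like gene Hkdc1 read 8.99 and 8.96 untreated and 8.05 and 8.02 after DSS (-0.94 ± 0.13, difference -0.74 ± 0.15, adjusted p = 0.313). For Slc9a3 the difference was -0.89 ± 0.27 (adjusted p = 0.566) and for Cyp4b1 -0.95 ± 0.22 (adjusted p = 0.447). Cyp4b1 changed by -0.95, -0.11 and -1.32 with both, passive only and active only. In each of these 4 genes the untreated pools with neither source had the highest mean of the 8 groups, at 9.57 for Tmigd1, 8.98 for Hkdc1, 10.93 for Slc9a3 and 9.11 for Cyp4b1. After DSS their means of 8.61, 8.04, 9.83 and 7.37 stood beside the 8.57, 7.95, 9.72 and 7.52 of the group with both sources. Of the 125 genes that fell, 43 were called lower in no other group, and 4 of the 98 that rose were called higher in no other (Cd80, Ly6i, Ssr3 and Tmem50b). A missed call elsewhere is not a difference in change. Of the 125, 123, 115 and 123 also had a negative change with both, passive only and active only, and all 98 had a positive one.

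Ptk6, a non-receptor tyrosine kinase of epithelial cells, was chosen after its values were seen. With neither source it read 7.69 and 7.31 untreated and 7.85 and 7.34 after DSS (0.10 ± 0.22, adjusted p = 0.995), and the pools overlapped. With both sources the mean went from 7.30 to 9.10, with passive SIgA only from 7.51 to 9.15 and with active SIgA only from 7.12 to 8.34. The difference in change from the mean of these groups was -1.45 ± 0.25, with a 95% interval from -2.0 to -0.91, and was not called (adjusted p = 0.313). Against the group with both sources, where 433 genes were called, it was -1.70 ± 0.31 and passed (adjusted p = 0.012). Against passive SIgA only and against active SIgA only Ptk6 was not called.

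**Figure D5:**
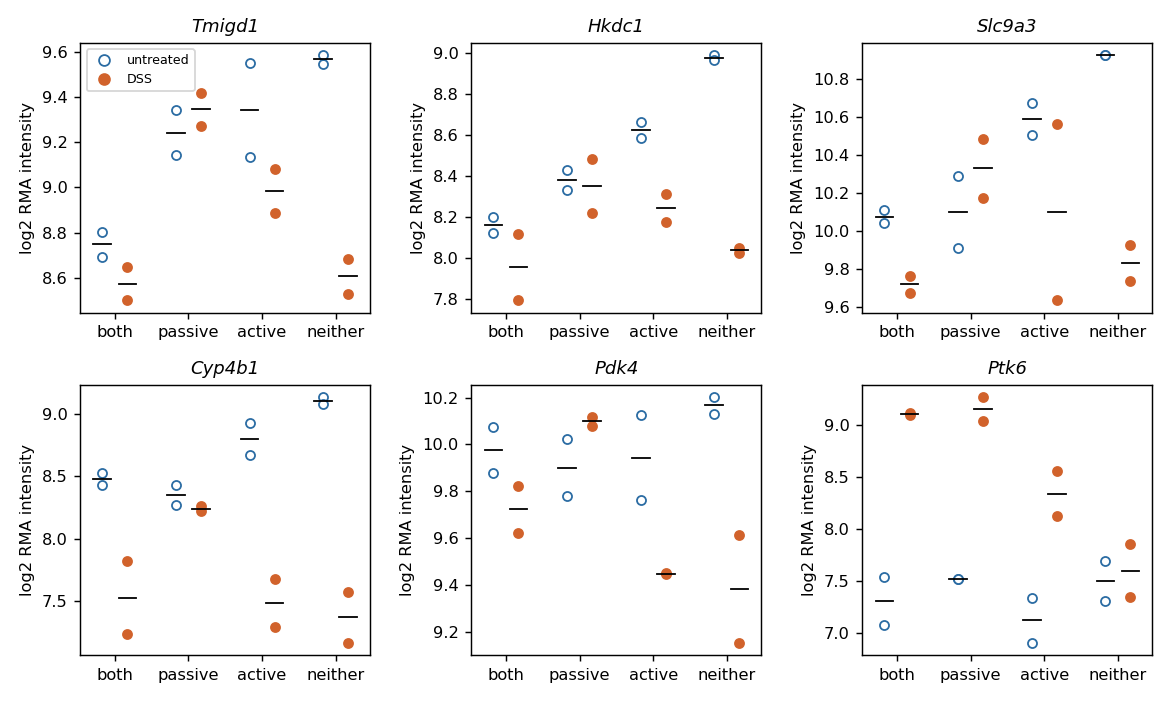
Log2 RMA intensity (vertical axes, each with its own range that does not start at 0) of 6 genes in the 8 groups. Open circles are untreated pools, filled circles DSS pools and bars group means, and the horizontal axis gives the SIgA sources. Untreated pools with neither source have the highest mean for Tmigd1, Hkdc1, Slc9a3 and Cyp4b1, and Ptk6 stays near its untreated level with neither source.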

How the data were processed

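Colonic epithelial RNA was measured on Affymetrix whole-transcript arrays. The authors deposited log2 intensities made with RMA, per the submitters' processing notes (version not given in the sources used here). RMA's quantile step gives arrays a common distribution, so that changes are relative. The table held 35557 probe sets, of which 21789 named 1 gene in the platform's annotation. The probe set with the highest mean stood for each of 999 genes with several, which left 19938 genes. Names were matched to RefSeq (21698 probe sets).

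Group means of the 8 groups were fitted with limma 3.58.1 in R 4.3.3 (8 residual and 5.03 prior degrees of freedom), two-sided, with Benjamini-Hochberg adjustment over all genes. The fit was tested on simulated data with noise independent between genes and arrays. That test does not cover shifts that many genes of an array share. Each p-value reflects differences among pools only, and the number of arrays limits precision.

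The members and lists were chosen with earlier results of these data known. Named genes were the 15 highest and 15 lowest called changes with pools that did not overlap. To these came the 5 (or, where none passed, 3) smallest p of each difference. Both choices left out predicted, small RNA and receptor-family symbols. Up to 6 members of a list by smallest p were also named, and Pigr. Other members of the lists and the genes in counts were named after their values were seen. Alternatives changed moderation, weights, block, scaling, filters, thresholds and the arrays used.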

Additional observations from a re-analysis of the deposited data

Results flagged for a closer look

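Differences between groups in the DSS effect passed the test for Zfp600 against the mean of the other 3 groups (1.44) and against the group with both sources (3.35). Against the group with both sources they also passed for Nyx (1.5), Scgb2b2 (1.55), Mup5 (1.84) and Defb4 (1.71), named among 433 genes. Pdk4, a kinase that restrains pyruvate oxidation, was singled out because its DSS pools lay below the untreated pools in 1 group and above them in another. With neither source it read 10.13 and 10.20 untreated and 9.15 and 9.61 after DSS, and with passive SIgA only 10.02 and 9.78 untreated and 10.12 and 10.08 after DSS. The difference of -0.98 was not past the threshold (adjusted p = 0.902), and the call of Pdk4 with neither source was kept without the second DSS pool and lost without each of the other 3 pools.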

How the results depend on the processing

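No gene called with neither source changed sign in any of the 30 alternatives, but this outcome was largely fixed in advance. Many alternatives, such as other thresholds or an array of another group left out, leave the change of a gene as it was. Where the DSS and untreated pools do not overlap, leaving out 1 of them cannot turn the sign either. The kept sign is therefore no test of the calls. Of the 223 calls with neither source, 41 were made in each of the 30 alternatives (30 higher and 11 lower). With no moderation 171 genes were called with neither source. Of the 98 rises 48 then kept their call, and of the 125 falls 69 did. The count was also lower with arrays centred (197) and without the untreated group with both sources (174). The count was 343 with a trend in the prior variance, 547 with array weights and 383 at an adjusted p under 0.1, and 54 to 274 with 1 array left out. It fell to 59 and 69 without the first or second DSS pool and to 86 and 54 without the first or second untreated pool. Against the mean of the other 3 groups the count was 0 with no moderation, 0 with the dimmest 30% of genes left out, 5 with all probe sets, 0 without the untreated group with both sources, alone or with 1 more array (left out together after the data were seen), and 0 to 2 with 1 array left out. Against both sources it was 166 with no moderation, 801 with arrays centred, 7 without the dimmest genes, 695 at an adjusted p under 0.1, 287 with only the arrays compared and 156 to 634 with 1 array left out. That value was under 433 by more than 1.5 times without the second untreated (193) or second DSS pool (178) with both sources and without any pool with neither source (156 to 248). The cause was not tested. With 1 array left out, the changes ranged from -0.97 to 0.402 for Ifit1, -0.997 to 0.145 for Ifit3, -0.819 to 0.34 for Usp18 and -0.154 to 0.353 for Ptk6.

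The labels do not say that replicate numbers pair the pools. Correlations of the deviations of same-numbered pools ranged from -0.301 to 0.666 over pairs of groups, with each negative one involving the DSS pools with active SIgA only or with neither source. That of the untreated and DSS groups with neither source was -0.236. A replicate block gave 247 calls with neither source, 1 against the mean of the others and 550 against both. With the numbers crossed, a fit chosen after the data were seen, 314 genes were called. A left-out array leaves a lone pool that is assumed to vary like the other groups.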
